A study of Equus caballus with 40 samples.

Results

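The mitosis and cytokinesis genes are 47 genes listed by name whose products carry a cell from entry into mitosis to the separation of its daughters. Of these 45 had a named probe set among the 16661 genes named on the array, and each is represented by its probe set with the highest mean over the 40 arrays. KIF4A and KIF14 are not listed in the platform annotation and were not analysed here. Only MKI67 had more than 1 named probe set. The genes were measured in horse (Equus caballus) chondrocytes, the cells of cartilage, which had been isolated and grown as 3D pellets. Unstimulated control pellets received no interleukin-1β (IL-1β), an inflammatory cytokine of diseased joints. All other pellets received recombinant equine IL-1β at 5 ng/ml for 48 h before the treatments began, and IL-1β was then given alone or together with one of 3 serum preparations. These were autologous equine serum (AES), a preparation named AES24h in the labels, and autologous conditioned serum (ACS). Harvest followed 2 h or 48 h later, so the 2 h pellets had already spent 48 h under IL-1β. Each of the 10 groups had 4 arrays. The labels explain neither AES24h nor the serum doses, and they give no age of the animals. They state that 1 pellet per group was homogenised, and nothing in them ties the replicates to different horses or culture batches. The spread behind each p-value is that of arrays within their groups, pooled over the 10 groups, and may be technical.

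Cells enter mitosis when CDK1, bound to cyclins A and B, is switched on together with the Polo and Aurora kinases. Kinetochore proteins then join the chromosomes to the spindle, and a checkpoint holds the cell until all are attached. Once it is satisfied, CDC20 directs the anaphase-promoting complex to destroy cyclin B and securin, the chromosomes part, and the central spindle and a contractile ring divide the cell. Most of these transcripts accumulate in G2 and mitosis under the MuvB, MYBL2 and FOXM1 factors, so they are widely used as a reading of how many cells are dividing. Chondrocytes rarely divide in adult cartilage and take up division again after isolation into culture.

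The deposited values are log2 signals, and the 40 array medians lay between 4.35 and 4.59. Within groups the correlation of arrays over all probe sets was 0.962 to 0.984, and no array repeated another in any of the 780 pairs. The labelled cell type was checked with marker lists. Of 10 chondrocyte markers 9 had a mean above every array median in all 10 groups, and MATN3 was the exception. Of 9 leukocyte markers 7 or 8 had a mean below every array median in each group, with CD68 above, and 7 or 8 of 8 endothelial and mural markers were below. Of 5 synovial fibroblast markers 3 or 4 were above, which were drawn from DCN, FAP, CD248 and THY1. A level here always refers to 1 probe set, and levels of different genes are not set against each other.

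The mitosis and cytokinesis genes were low in every stimulated group at 2 h. The median of the 45 members was 7.26, 5.63, 6.61 and 6.20 in the 4 control arrays, a mean of 6.43 ± 0.68 (SD, n = 4). In the 4 arrays with IL-1β alone it was 3.31, 3.68, 3.21 and 3.37, a mean of 3.39 ± 0.20 (SD, n = 4). The lowest control array thus stood well above the highest IL-1β array. In bulk pellets fewer dividing cells and less RNA per dividing cell cannot be told apart. Differences were tested with limma across all 30559 probe sets, and a gene is called when its Benjamini-Hochberg adjusted p is under 0.05. With IL-1β 44 of the 45 members fell, where 2.96% of all probe sets were called lower. Their log2 fold changes ran from -4.48 to -0.92 with a median of -3.07, while the median over all probe sets was 0.04. All 45 members had 4 IL-1β arrays below 4 control arrays, as 5.41% of all probe sets had. Leaving out any single array kept the count of members called lower between 43 and 45.

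**Figure D1:**
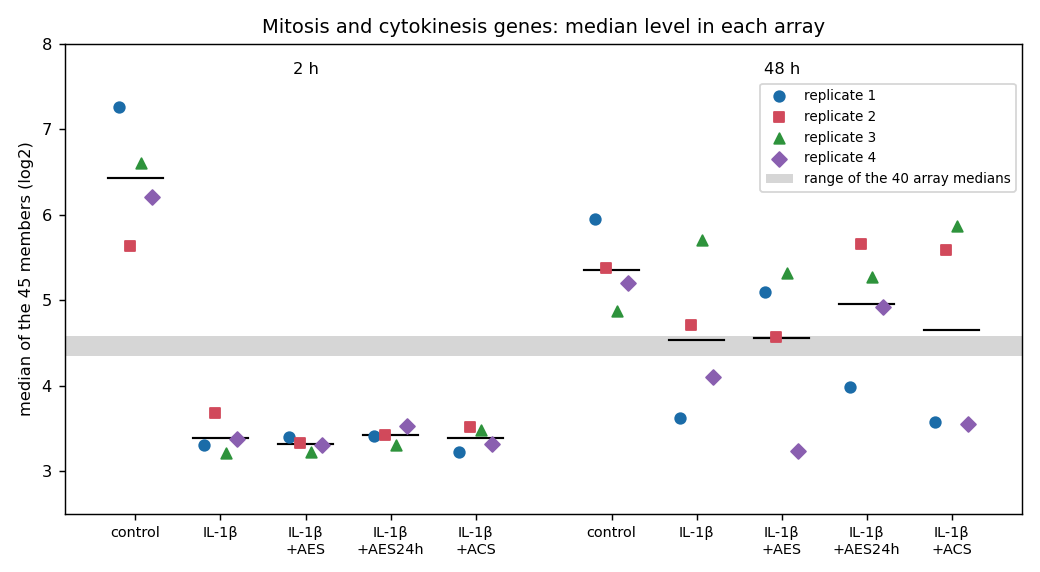
Median log2 level of the 45 mitosis and cytokinesis genes in each of the 40 arrays, by treatment and harvest time. Each symbol is 1 array, coded by replicate number, each bar is the mean of 4 arrays, and the grey band is the range of the 40 array medians over all probe sets. At 2 h the control arrays lie between 5.63 and 7.26 and the IL-1β arrays between 3.21 and 3.68, and at 48 h the IL-1β arrays spread from 3.62 to 5.71.

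The stimulated levels were near the low end of what the arrays report. With IL-1β alone at 2 h the mean of 39 of the 45 members lay below every array median, and in the controls at 2 h the same was true of 0 of 45. Hybridisation signals flatten towards background, so the differences give a direction and an approximate size, and the order of genes by size of change should be read with that limit. Chondrocyte markers moved with the same comparison. The mean of the 10 markers was 9.07 to 9.46 in the control arrays at 2 h and 7.90 to 8.28 in the IL-1β arrays, and 4 of the 10 fell. Their part in the result was not tested. Leukocyte markers averaged 2.96 to 3.17 in the control arrays and 3.14 to 3.32 in the IL-1β arrays, endothelial and mural markers 3.21 to 3.34 and 3.21 to 3.33, and synovial fibroblast markers 7.35 to 7.88 and 7.23 to 7.51, and 0 genes of these 3 lists were called (limma). At an unadjusted p under 0.05, 1 leukocyte marker was higher and 1 synovial fibroblast marker lower.

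All 9 genes classed here as entry kinases and cyclins fell with IL-1β at 2 h, with a median log2 fold change of -2.18. CCNA2 encodes cyclin A2, which partners CDK2 and CDK1 in S phase and G2. Its values were 9.23, 7.70, 8.66 and 8.28 in the control arrays and 4.98, 5.54, 5.32 and 4.93 in the IL-1β arrays, and every control array was higher than every IL-1β array. It fell by 3.28 on the log2 scale (SE 0.49, adjusted p = 1.77e-05). AURKA encodes the Aurora kinase that acts at the centrosomes. It measured 8.02, 6.61, 7.57 and 7.03 in controls and 5.95, 5.44, 5.02 and 4.87 with IL-1β, so the groups were closer than for CCNA2 but did not overlap, and it fell by 1.99 (SE 0.38, adjusted p = 6.26e-04). Among the other members CCNB1 (cyclin B1) fell by 3.76, CCNB2 (cyclin B2) by 3.20 and CDK1 by 3.01. The smaller changes of the class were those of PLK1 at -2.18, PBK at -2.12, MELK at -2.11 and NEK2, a centrosomal kinase, at -2.08.

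The spindle checkpoint genes fell together, 4 of 4, with a median of -2.71. MAD2L1 encodes MAD2, which binds and holds back CDC20. Its values were 7.35, 5.46, 6.81 and 6.20 in controls and 3.97, 3.91, 3.82 and 3.66 with IL-1β, where the 4 arrays lay within a narrow band below all controls. The fall was 2.62 (SE 0.41, adjusted p = 3.69e-05). BUB1, a checkpoint kinase at the kinetochore, measured 6.91, 5.17, 6.41 and 5.89 in controls and 3.27, 3.52, 3.11 and 3.31 with IL-1β and fell by 2.79 (SE 0.38, adjusted p = 5.18e-06). The lowest BUB1 control was again above the highest IL-1β array. BUB1B, which encodes BUBR1, changed by -3.14, and TTK, the kinase MPS1 at the top of the checkpoint, by -2.40.

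The genes of anaphase and protein destruction fell, 3 of 3, but by unequal amounts. PTTG1 encodes securin, which guards the enzyme that cuts the bond between sister chromatids. It measured 7.12, 6.42, 6.54 and 6.82 in controls and 5.89, 6.05, 5.85 and 5.44 with IL-1β. This was the smallest change of any member, a fall of 0.92 (SE 0.17, adjusted p = 3.05e-04), and the groups still did not overlap. CDC20 measured 7.26, 5.21, 6.47 and 6.28 in controls and 3.69, 4.04, 3.96 and 4.35 with IL-1β and fell by 2.30 (SE 0.37, adjusted p = 5.90e-05). UBE2C, the ubiquitin-conjugating enzyme that works with the anaphase-promoting complex, fell by 3.07 (SE 0.44, adjusted p = 1.05e-05).

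Of the 8 centromere and kinetochore genes 7 fell, with a median over the 8 of -2.92. SKA3, part of the complex that holds kinetochores to microtubule ends, measured 6.81, 5.91, 6.32 and 6.18 in controls and 4.81, 5.09, 4.96 and 5.09 with IL-1β and fell by 1.31 (SE 0.26, adjusted p = 8.37e-04). CENPA, the histone H3 variant that marks the centromere, measured 6.87, 5.63, 6.39 and 6.39 and 4.34, 4.71, 4.59 and 4.60 and fell by 1.76 (SE 0.32, adjusted p = 3.60e-04). Neither gene had any overlap between the groups. The kinetochore genes CENPF, NDC80, CENPE, NUF2 and SPC25 had changes of -3.98, -3.65, -3.60, -3.46 and -2.23.

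SKA1, the partner of SKA3, was the member not called at 2 h. It measured 6.06, 5.45, 5.06 and 5.09 in controls and 2.55, 4.84, 2.63 and 2.13 with IL-1β, a difference of -2.38 (SE 0.77, adjusted p = 0.0752) by limma. Replicate 2 stood apart from the other IL-1β arrays, although it was still below the lowest control. The same number was high in every stimulated group at 2 h. SKA1 measured 2.37, 5.17, 2.49 and 3.11 with AES, 2.72, 5.60, 2.79 and 2.37 with AES24h and 2.5, 4.93, 2.91 and 2.57 with ACS. Replicate 2 was the highest SKA1 array in 9 of the 10 groups, the exception being the controls at 2 h. It was the only member for which 1 replicate number was highest in at least 8 groups, as was the case for 4.45% of all probe sets. Without replicate 2 of IL-1β at 2 h the difference was -2.98 with an adjusted p of 0.0257, and SKA1 was then called. It was also called with array weights, at an adjusted p of 0.0425, and when only the arrays of the 2 groups entered the fit, at 0.0302 (limma).

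Both members of the chromosomal passenger complex fell, with a median of -2.45. AURKB, its kinase, corrects faulty attachments and later helps the cell divide. It measured 6.54, 5.04, 5.72 and 5.94 in controls and 3.35, 3.68, 3.59 and 3.42 with IL-1β and fell by 2.30 (SE 0.37, adjusted p = 6.77e-05). BIRC5 encodes survivin, which brings the complex to centromeres. It measured 6.17, 4.49, 4.4 and 4.79 in controls, with replicate 1 well above the others, and 2.49, 2.30, 2.47 and 2.21 with IL-1β, and it fell by 2.60 (SE 0.38, adjusted p = 1.70e-05).

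The 8 measured spindle and motor genes fell with a median of -3.52. KIF11 is the motor that pushes the spindle poles apart. Its 4 controls were 8.16, 6.62, 7.41 and 7.17 and its IL-1β arrays were 3.5, 3.86, 3.42 and 3.5, a wide gap, and it fell by 3.77 (SE 0.52, adjusted p = 7.11e-06). NUSAP1, which bundles spindle microtubules, measured 8.22, 7.0, 7.83 and 7.47 and 4.08, 4.11, 4.31 and 4.94 and fell by 3.27 (SE 0.50, adjusted p = 2.38e-05). The other spindle proteins ASPM, HMMR and TPX2 fell by 4.27, 4.14 and 3.93. The motors KIF2C and KIF15 fell by 2.77 and 2.47, and DLGAP5, which stabilises kinetochore fibres, fell by 1.93. KIF15, which works beside KIF11, had the smallest adjusted p of all 45 members, at 1.83e-07 (limma).

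The chromosome structure genes fell, 4 of 4, with a median of -3.40. MKI67 encodes Ki-67, which coats mitotic chromosomes and is the standard stain for dividing cells. It measured 8.67, 7.39, 7.66 and 7.74 in controls and 3.31, 4.46, 4.25 and 3.82 with IL-1β and fell by 3.91 (SE 0.55, adjusted p = 7.50e-06). Its other probe set fell by 4.39 (adjusted p = 2.21e-05, limma), so both moved in the same direction. NCAPG is a subunit of condensin, which compacts chromosomes. It measured 7.85, 6.5, 7.47 and 6.89 in controls and 4.24, 4.23, 4.4 and 4.30 with IL-1β, the latter almost identical, and it fell by 2.89 (SE 0.47, adjusted p = 7.31e-05). NCAPH, another condensin subunit, fell by 2.42, and TOP2A, the topoisomerase that untangles DNA, by 4.04.

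All 6 measured cytokinesis genes fell, with a median of -3.64. ANLN encodes anillin, the scaffold of the contractile ring, and had the largest log2 change of any member. It measured 8.92, 7.51, 8.29 and 8.11 in controls and 3.58, 4.27, 3.66 and 3.41 with IL-1β, and it fell by 4.48 (SE 0.62, adjusted p = 7.14e-06). PRC1, which crosslinks the microtubules of the central spindle, measured 8.61, 7.26, 7.97 and 7.74 and 3.21, 3.92, 3.68 and 3.85 and fell by 4.23 (SE 0.62, adjusted p = 1.36e-05). Every PRC1 and ANLN control was higher than every IL-1β array. The central spindle motors KIF23 and KIF20A fell by 3.88 and 3.39. ECT2, the exchange factor that switches on RhoA at the ring, fell by 3.17, and CEP55, which recruits the final cutting machinery, by 3.09. PRR11, given no role here, measured 7.86, 5.89, 7.0 and 6.55 in controls and 2.44, 2.41, 2.42 and 2.66 with IL-1β and fell by 4.34 (SE 0.60, adjusted p = 6.21e-06).

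**Figure D2:**
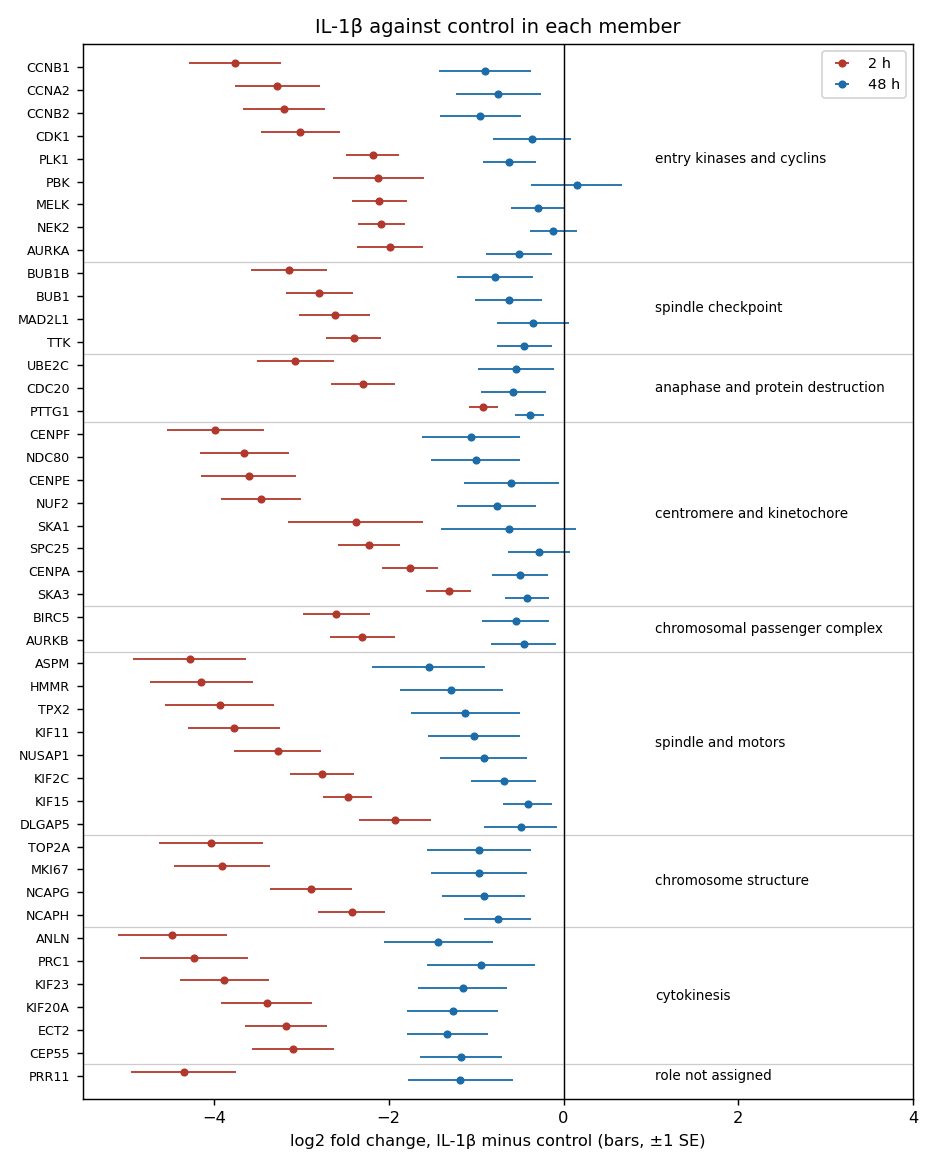
Log2 fold change of IL-1β against control for each of the 45 members at 2 h (red) and 48 h (blue), grouped by role, with bars of 1 standard error from limma. At 2 h every member lies left of 0, from -4.48 (ANLN) to -0.92 (PTTG1), and at 48 h the range is -1.54 to 0.15.

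After 2 h with a serum preparation no member differed detectably from IL-1β alone. Against IL-1β alone, 0 of 45 members were called with AES, AES24h or ACS, where 0.0164%, 0.0229% and 0.0262% of all probe sets were called (limma). With an unadjusted p under 0.05 the members numbered 0, 0 and 0, against 7.33%, 5.28% and 5.22% of all probe sets. The median differences were -0.0048, 0.04 and 0.02. In each stimulated group at 2 h the means of 37 to 39 members lay below every array median, where signals flatten. A further fall with serum could thus have gone unseen. The 95% intervals of all 45 members held 0 in each of the 3 comparisons, and the bounds over all of them ran from -1.58 to 1.90. The intervals reached to either side of the estimate by 0.34 to 1.57 over the members, with a median of 0.95. Their widths rest on a spread pooled over all 10 groups and are the same at 48 h. The median member SD was 0.20 to 0.25 in the stimulated groups at 2 h and 0.69 to 1.25 at 48 h. For most members the intervals may thus be too wide at 2 h and too narrow at 48 h. The per-array medians were 3.23 to 3.40 with AES, 3.30 to 3.53 with AES24h and 3.23 to 3.51 with ACS, all within or next to the 3.21 to 3.68 of IL-1β alone.

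The same serum groups were below the controls at 2 h, with the control arrays shared by all of these comparisons. With AES 44 of 45 members fell (4.6% of all probe sets lower), with AES24h 43 (4.05%) and with ACS 44 (4.08%), and the medians were -3.09, -3.03 and -3.12. In each of these comparisons 4 of the 10 chondrocyte markers fell, and their mean was 7.94 to 8.50, 7.79 to 8.74 and 7.95 to 8.37 in the arrays of the 3 groups. With AES 1 of 9 leukocyte markers, CD68, rose by 0.74 and 1 of 5 synovial fibroblast markers, THY1, fell by 1.08. The part of these markers in the result was not tested. The members not called were SKA1 in each, with adjusted p of 0.0947, 0.125 and 0.0909 (limma), and PBK with AES24h. PBK, a mitotic kinase, measured 6.96, 5.44, 6.47 and 5.64 in controls and 3.78, 5.12, 4.62 and 4.57 with AES24h, a difference of -1.61 (SE 0.52, adjusted p = 0.0615). The lowest control and the highest AES24h array stood close together without overlapping.

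At 48 h the difference between IL-1β and control was smaller and the arrays of each stimulated group were spread widely. The member median was 5.95, 5.38, 4.88 and 5.20 in the control arrays (5.35 ± 0.45, SD, n = 4) and 3.62, 4.71, 5.71 and 4.10 with IL-1β (4.53 ± 0.90, SD, n = 4). Replicate 3 of IL-1β therefore lay inside the control range, while replicate 1 lay within the 2 h IL-1β range. Of the 10 chondrocyte markers 7 fell in this comparison, with a list median of -1.53, and their mean was 8.62 to 9.81 in the control arrays and 7.67 to 8.18 in the IL-1β arrays. Their part in the values below was not tested. None of the 45 members was called, where 1.26% of all probe sets were called in either direction (limma). At an unadjusted p under 0.05, 10 members were lower, against 4.92% of all probe sets. The log2 differences ran from -1.54 to 0.15 with a median of -0.75, and 44 were negative. Of the 45 intervals at the 95% level 35 held 0, and their bounds ran from -2.86 to 1.21. These intervals use the pooled spread and may be too narrow for most members. The median was -0.48 without replicate 1 of IL-1β and -1.08 without replicate 3.

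Role by role the 48 h medians were -0.51 for entry kinases and cyclins, -0.54 for the checkpoint, -0.54 for anaphase and destruction, -0.61 for centromere and kinetochore, and -0.50 for the passenger complex. They were -0.97 for spindle and motors, -0.94 for chromosome structure and -1.22 for cytokinesis, with 0 members called in any class. ECT2 had the smallest adjusted p. It measured 6.07, 5.58, 4.70 and 5.14 in controls and 3.22, 4.62, 4.83 and 3.51 with IL-1β, a difference of -1.33 (SE 0.47, adjusted p = 0.229), with replicates 2 and 3 reaching close to or into the control range. ANLN measured 7.55, 6.86, 6.52 and 6.92 in controls and 4.18, 5.99, 7.0 and 4.95 with IL-1β, so the IL-1β arrays ran from near the 2 h stimulated level up to the control level. The difference was -1.43 (SE 0.62, adjusted p = 0.416). CCNA2 gave the same picture, with 7.77, 7.19, 7.0 and 7.45 in controls and 6.16, 6.72, 7.63 and 5.91 with IL-1β, a difference of -0.75 (SE 0.49, adjusted p = 0.660). PBK had the only positive difference, 0.15 (SE 0.52, adjusted p = 0.957).

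The other members given in full also had a wide 48 h range with IL-1β. MKI67 measured 7.08, 6.42, 6.08 and 6.38 in controls and 4.48, 5.67, 6.78 and 5.16 with IL-1β, a difference of -0.97 (SE 0.55, adjusted p = 0.589). KIF11 measured 6.46, 5.93, 5.53 and 6.13 and 4.38, 5.08, 6.33 and 4.17, a difference of -1.02 (SE 0.52, adjusted p = 0.534). PRC1 measured 7.36, 6.22, 6.02 and 6.42 and 4.47, 5.86, 6.95 and 4.97, a difference of -0.94 (SE 0.62, adjusted p = 0.664). In each of these 3 genes replicate 3 with IL-1β was above the lowest control and replicate 1 was below it. AURKB measured 4.69, 4.60, 4.51 and 4.39 in controls, a narrow group, and 3.15, 4.11, 4.96 and 4.14 with IL-1β, which lay on both sides of it. BUB1 measured 5.48, 4.58, 4.49 and 4.89 and 3.54, 4.28, 5.08 and 4.02, and CDC20 measured 5.95, 4.84, 4.88 and 5.19 and 4.0, 4.43, 5.70 and 4.42. These groups overlapped as well, and the differences of AURKB, BUB1 and CDC20 were -0.45, -0.63 and -0.57.

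The change of the IL-1β effect between harvests was tested directly. The difference of the effects, 48 h minus 2 h, was positive in 45 of 45 members, with a median of 2.25 and a range of 0.53 to 3.29. No member was called, where 0.00327% of all probe sets were called in either direction, and the smallest adjusted p was 0.111 (limma). With array weights 23 members were called for this difference. With an unadjusted p under 0.05, 44 members were higher, against 2.93% of all probe sets. PRC1 had the largest value, 3.29 (SE 0.87, adjusted p = 0.233), and PTTG1 the smallest, 0.53 (SE 0.23, adjusted p = 0.821). Without replicate 2 of the controls at 2 h, 8 members were called, and without replicate 1 of IL-1β at 48 h, 1 member.

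The harvest times were also compared within each treatment. In controls the 48 h levels were below the 2 h levels in 45 of 45 members, with a median of -1.21. None was called (0.00327% of all probe sets), 40 were lower at an unadjusted p under 0.05 by limma (2.76% of all probe sets), and 13 had 48 h arrays all below the 2 h arrays (2.32% of all probe sets). CCNA2 went from 8.47 ± 0.64 to 7.35 ± 0.33 (SD, n = 4), a difference of -1.12 (SE 0.49, adjusted p = 0.889), and MKI67 from 7.86 ± 0.56 to 6.49 ± 0.42 (SD, n = 4), a difference of -1.38 (SE 0.55, adjusted p = 0.811). The CCNA2 arrays of both times overlapped slightly and the MKI67 arrays did not. Without replicate 2 of the controls at 2 h, 3 members were called.

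With IL-1β alone the 48 h levels were above the 2 h levels in 44 of 45 members, with a median of 1.04. None was called (0.00654% of all probe sets), 32 were higher at an unadjusted p under 0.05 by limma (3.78%), and 21 had 48 h arrays all above the 2 h arrays (2.34%). PRR11 had the largest difference, 1.99 (SE 0.60, adjusted p = 0.420), and its 48 h values of 3.81, 4.71, 5.92 and 3.45 were all above its 2 h values. KIF11 was 1.42 (SE 0.52, adjusted p = 0.556), and every KIF11 array at 48 h was also above every array at 2 h. SKA1 overlapped between the times, with 2.82, 5.23, 3.70 and 3.00 at 48 h. The exception in sign was PTTG1, which went from 5.81 ± 0.26 to 5.68 ± 0.41 (SD, n = 4), a difference of -0.13 (SE 0.17, adjusted p = 0.936).

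**Figure D3:**
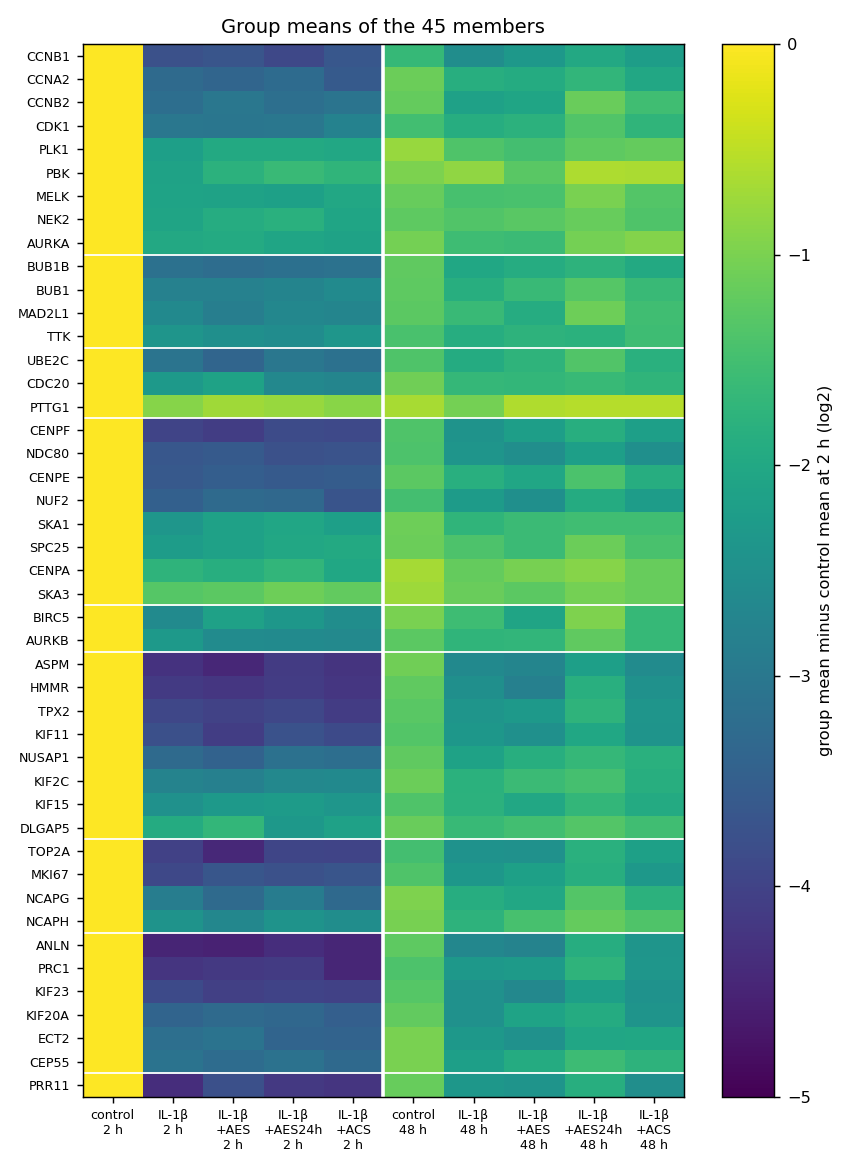
Group mean of each member minus its own control mean at 2 h, on the log2 scale, for the 10 groups. Rows are the 45 members grouped by role, columns are treatments at 2 h (left) and 48 h (right), and darker colour is lower. Every 2 h stimulated column is dark for most members, and the 48 h columns, the control column included, lie between these and the 2 h control.

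The 16 stimulated arrays at 48 h differed from each other more than those at 2 h. With AES the member medians were 5.10, 4.57, 5.32 and 3.23 (4.55 ± 0.93, SD, n = 4), with AES24h 3.99, 5.66, 5.28 and 4.92 (4.96 ± 0.72, SD, n = 4), and with ACS 3.57, 5.59, 5.87 and 3.55 (4.65 ± 1.25, SD, n = 4). Of the 16 arrays 8 lay within the 48 h control range of member medians, 4 within the 2 h IL-1β range and 4 in between. The ACS arrays had 2 in the first, 2 in the second and 0 in between. The AES24h arrays had 3 in the first and 1 in between, with 0 in the second. These positions describe single arrays and were not tested.

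The standard deviation over 4 arrays was larger at 48 h than at 2 h for 44 of 45 members with IL-1β, 42 with AES, 42 with AES24h and 44 with ACS. Over all probe sets the same shares were 49.5%, 53.4%, 44.9% and 50.4%. In these groups at 2 h the means of 37 to 39 members lay below every array median, where signals flatten. The median member SD was 0.20 to 0.25 in them, 0.67 in the 2 h controls and 0.69 to 1.25 in the stimulated groups at 48 h. How far the low signal narrowed the 2 h spread was not tested. In controls it was larger at 48 h for 7 of 45 members, and for 50.8% of all probe sets. The members also took their order from the same arrays, so a count of members with the same sign is not a count of independent results. Replicate 3 was the highest array for 44 of 45 members with IL-1β at 48 h, against 22.8% of all probe sets. Replicate 4 was the lowest for 43 with AES (22.9%), replicate 1 was the lowest for 43 with AES24h (31.5%), and replicate 3 was the highest for 41 with ACS (26.5%). In controls at 2 h replicate 1 was the highest for 44 and replicate 2 the lowest for 41, against 23.5% and 22.7% of all probe sets. The labels do not say what a replicate number stands for.

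**Figure D4:**
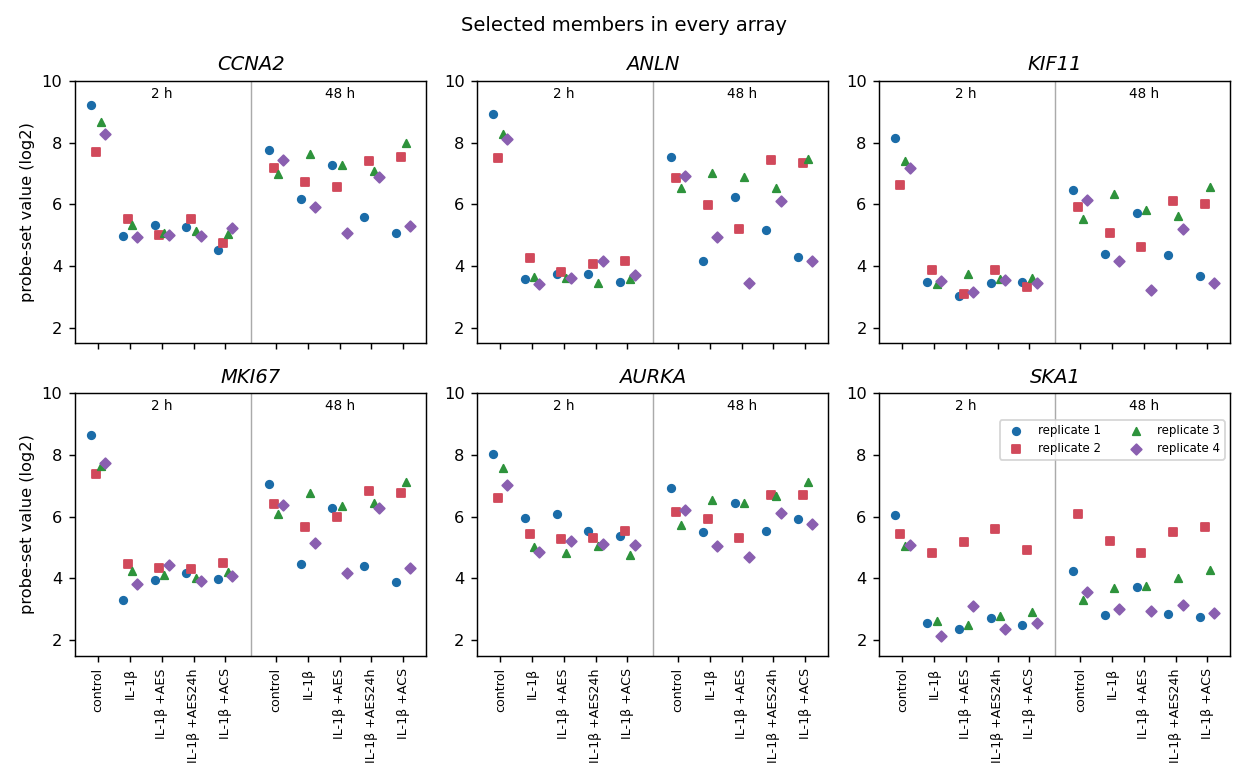
Log2 value of 6 members (CCNA2, ANLN, KIF11, MKI67, AURKA and SKA1) in each of the 40 arrays, by treatment and harvest time, with replicate numbers coded by symbol. With ACS at 48 h ANLN stands at 7.33 and 7.47 in replicates 2 and 3 and at 4.28 and 4.15 in replicates 1 and 4, and SKA1 is high in replicate 2 of most groups.

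ANLN shows the spread in a single gene. At 48 h it measured 6.23, 5.22, 6.87 and 3.45 with AES, 5.18, 7.44, 6.52 and 6.12 with AES24h and 4.28, 7.33, 7.47 and 4.15 with ACS. Replicate 4 of AES was as low as the AES arrays at 2 h, replicates 1 and 4 of ACS were close to the ACS arrays at 2 h, and replicate 1 of AES24h stood clear of its 2 h arrays. Replicate 2 of AES lay between, and the other arrays were near or within the 48 h control values. MKI67 measured 6.29, 6.0, 6.35 and 4.18, 4.41, 6.85, 6.46 and 6.27 and 3.88, 6.78, 7.11 and 4.35 in the same groups, and the same arrays were low in both genes. AURKA ran over a smaller range, with 6.44, 5.30, 6.46 and 4.69, 5.54, 6.70, 6.68 and 6.12 and 5.94, 6.71, 7.14 and 5.75.

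Other transcripts were read in the same 16 arrays. MMP1, a collagenase that IL-1β induces, was picked after its values were seen. It lay between 9.74 and 12.53 in all 16, against 3.59 to 4.38 in the 48 h controls. Any link between MMP1 and the members was not tested. CDKN1A encodes p21, an inhibitor of cyclin-dependent kinases. It was highest in replicate 1 of every stimulated group at 48 h, with 9.25, 7.94, 7.43 and 7.99 for IL-1β, 8.65, 7.49, 8.26 and 8.61 for AES, 9.42, 8.30, 8.36 and 8.49 for AES24h and 9.52, 8.10, 8.02 and 9.09 for ACS. Replicate 1 had the lowest or next lowest member median with IL-1β, AES24h and ACS, but not with AES. At 2 h CDKN1A was also highest in replicate 1 with IL-1β (9.30), AES (9.33) and AES24h (9.52). With ACS at 2 h it was highest in replicate 4 (9.35). Any link between CDKN1A and the members was not tested.

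Against IL-1β alone at 48 h no member was called with any serum preparation. The members called numbered 0 with AES, AES24h and ACS, where 0.442%, 0.226% and 0.262% of all probe sets were called (limma). At an unadjusted p under 0.05, 1, 2 and 1 members were higher, against 5.02%, 3.32% and 3.62% of all probe sets. The medians were 0.01, 0.46 and 0.07. With AES24h the difference was positive in 45 of 45 members, from 0.04 to 0.98, while 45% of all probe sets were positive. The per-array member medians overlapped, at 3.99 to 5.66 with AES24h and 3.62 to 5.71 with IL-1β alone. The members followed the same arrays, so their signs are not independent. The bounds of the 95% intervals ran from -1.52 to 1.70 with AES, -1.38 to 2.06 with AES24h and -1.39 to 1.78 with ACS. They use the spread pooled over all 10 groups. The median member SD in these groups was larger than at 2 h, so the intervals may be too narrow for most members.

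Between the serum groups at 48 h 0 members and 0% of all probe sets were called in each of the 3 comparisons. With an unadjusted p under 0.05 limma gave 1 member higher with AES24h than with AES (5.32% of all probe sets), and 0 for ACS against AES (10.7%) and for ACS against AES24h (2.47%). The median was 0.39 for AES24h minus AES, with 44 of 45 members positive, 0.07 for ACS minus AES and -0.32 for ACS minus AES24h. The bounds of the intervals ran from -1.51 to 2.18, -1.50 to 1.70 and -1.90 to 1.58, and the pooled spread may make these too narrow as well.

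Against control at 48 h the serum groups had median differences of -0.68 with AES, -0.36 with AES24h and -0.63 with ACS. With AES 1 of 45 members fell, a smaller share than the 4.75% of all probe sets called lower. At an unadjusted p under 0.05, 14 were lower (10.6%, limma). The called member was ECT2, with 4.23, 3.24, 4.93 and 3.20 against the control values 6.07, 5.58, 4.70 and 5.14. Its fall was 1.47 (SE 0.47, limma adjusted p = 0.0452). Chondrocyte markers were lower as well, with 9 of 10 called with AES and 8 of 10 with AES24h and with ACS, and the leukocyte marker CD68 rose by 0.56 with AES. Their part was not tested. The ECT2 call was lost without replicates 1 or 4 of the 48 h controls or replicates 2 or 4 of AES, where 0 members were called, while 2 members were called without replicate 1 of AES and 4 without replicate 3. With AES24h 0 members were called (3.54%) and 1 was lower at an unadjusted p under 0.05 (5.9%, limma). With ACS 0 were called (3.85%) and 9 were lower unadjusted (6.5%, limma).

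From 2 h to 48 h 8 of the 45 members rose with AES24h (0.556% of all probe sets higher), and 33 members had 48 h arrays all above the 2 h arrays (2.9%). The median over the 45 was 1.42. CCNB2 measured 3.71, 3.42, 3.61 and 3.81 at 2 h and 4.72, 6.32, 5.90 and 5.70 at 48 h, with no overlap, and rose by 2.02 (SE 0.47, adjusted p = 0.0211). ANLN rose by 2.46 (SE 0.62, adjusted p = 0.0400), and its values of 3.73, 4.07, 3.44 and 4.17 at 2 h were all below those at 48 h given above. The others were PRC1, PRR11, HMMR, CENPE, UBE2C and MAD2L1, with rises of 2.38, 2.30, 2.26, 2.17, 1.67 and 1.57 and adjusted p between 0.0366 and 0.0492 (limma). Of the 10 chondrocyte markers COL2A1, the main collagen of cartilage, and COL11A1 fell in the same comparison, by 1.85 and 0.89, and their part in the result was not tested. The count of members changed with single arrays. It was 17 without replicate 1 of AES24h at 48 h, 0 without any other AES24h array at 48 h or without replicate 1 at 2 h, and 1 without any of the remaining 2 h arrays.

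With AES 1 member rose from 2 h to 48 h (0.569% of all probe sets higher), and 6 had no overlap between the times (2.58%). It was UBE2C, with 2.84, 2.96, 3.02 and 2.97 at 2 h and 5.27, 4.57, 5.21 and 3.23 at 48 h, a rise of 1.62 (SE 0.44, adjusted p = 0.0482). The replicate 4 array at 48 h was close to the 2 h values and the other 3 were well above them. Without that array 8 members were called, and without any other AES array 0. The chondrocyte markers COL2A1 and HAPLN1 also fell with AES between the times, by 2.09 and 1.31, and their part was not tested. With ACS 0 members were called (0.916% in either direction), 39 were higher at an unadjusted p under 0.05 by limma (5.43%), and 8 had no overlap (2.81%). Without replicate 1 of ACS at 48 h 10 members were called, and without replicate 4, 1 member. The medians were 1.2 with AES and 1.19 with ACS. Whether the time change differed between treatments was not tested beyond IL-1β against control.

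The rest of the cell cycle was described with 4 further gene lists. Of 52 measured other mitotic genes 43 fell with IL-1β at 2 h, with a median over the list of -1.33. RACGAP1, the partner of KIF23 in the central spindle, was 6.95 ± 0.52 in controls and 2.95 ± 0.15 with IL-1β (SD, n = 4) and fell by 4.0 (SE 0.44, adjusted p = 7.82e-08). CDCA3, a trigger of mitotic entry, fell by 2.69, CENPN, a centromere protein, by 3.51 and HMGB2, a chromatin protein, by 1.36. Of 42 measured DNA replication and S phase genes 28 fell, with a median of -0.92. TK1, thymidine kinase, fell by 1.57, DTL by 2.55, MCM6, a subunit of the replicative helicase, by 1.75 and UHRF1, which maintains DNA methylation, by 1.75. These counts stand against the 2.96% of all probe sets called lower in the comparison.

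Among 22 measured regulators of mitotic genes 4 fell and 0 rose. FOXM1 measured 6.36, 5.25, 5.45 and 5.61 in controls and 3.55, 3.40, 3.62 and 3.54 with IL-1β, with no overlap, and fell by 2.14 (SE 0.29, adjusted p = 5.18e-06). MYBL2, E2F8 and LIN9 fell by 2.06, 2.07 and 1.49. The median of the list was -0.21. Of 19 measured G1 cyclins and inhibitors 4 fell and 1 rose, where 1.56% of all probe sets were called higher. The inhibitor CDKN2C (p18) fell by 1.2, CDK2 by 0.93, CCNE1 by 0.59 and CCNE2 by 0.84. CDKN1A rose by 1.46 (SE 0.39, adjusted p = 0.0199), from 7.16 ± 0.28 to 8.62 ± 0.48 (SD, n = 4). No G1 gene was called higher without replicate 1 or 2 of the controls or replicate 1 of IL-1β, while 2 were without replicate 3 of IL-1β. The number that fell was 1 without replicate 1 of the controls and 2 without replicate 3 of IL-1β. CCND1, cyclin D1, differed by -0.28 (SE 0.18, adjusted p = 0.568).

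**Figure D5:**
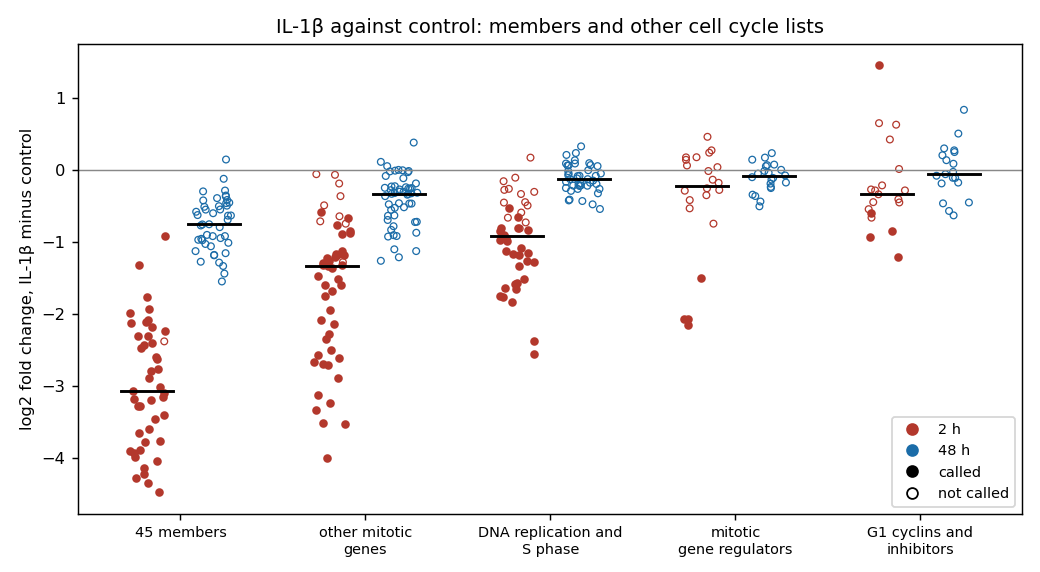
Log2 fold change of IL-1β against control at 2 h (red) and 48 h (blue) for the 45 members and for 4 other cell cycle lists, 1 point per gene, with filled points called by limma and bars at the medians. At 2 h the medians are -3.07 for the members, -1.33 for other mitotic genes, -0.92 for DNA replication and S phase, -0.21 for regulators and -0.33 for G1 genes, and at 48 h 0 genes are called in any list.

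At 48 h IL-1β called 0 genes of these 4 lists against control (1.26% of all probe sets). At an unadjusted p under 0.05 limma had 11 of 52 other mitotic genes, 1 of 42 S phase genes and 1 of 22 regulators lower. Of 19 G1 genes 3 were higher and 3 lower. Over all probe sets 4.92% were lower and 4.91% higher, so the S phase and regulator counts did not exceed that share. TK1 was the 1 probe set of the whole array called for a difference of the IL-1β effect between 48 h and 2 h. It measured 7.27, 6.41, 7.05 and 6.71 in controls and 5.04, 5.08, 5.34 and 5.69 with IL-1β at 2 h, and 6.49, 6.04, 5.71 and 5.90 and 5.74, 5.98, 6.41 and 6.28 at 48 h, a difference of effects of 1.64 (SE 0.27, adjusted p = 0.0196). The groups were apart at 2 h and overlapped at 48 h. Against IL-1β alone at 48 h CENPU, a centromere protein named after its values were seen, was the 1 of 52 other mitotic genes that rose. The rise was 0.86 with AES24h (SE 0.18, limma adjusted p = 0.0290) and 0.97 with ACS (SE 0.18, limma adjusted p = 0.0118). In these comparisons 0.226% and 0.262% of all probe sets were called in either direction.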

How the data were processed

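Groups of 4 arrays were taken from the sample titles, for 40 arrays in 10 groups. The authors deposited 1 log2 value for each probe set on each array. The submitters' processing notes name RMA, limma and Affymetrix Expression Console, with no version or setting given in the sources used here. RMA gives all arrays a like distribution, which would shrink any change that most transcripts share. Of 30559 probe sets 16789 were listed with 1 gene symbol, 343 with several and 13427 were unlisted.

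Differences were fitted with limma 3.58.1 in R 4.3.3, with 10 group means over all 40 arrays (30 residual and 4.62 prior degrees of freedom), an intensity trend and no replicate term. All groups thus shared 1 estimate of the spread for each probe set, although the median member SD ran from 0.20 to 1.25 over the groups. This bears on every standard error, interval and p-value. Tests were two-sided, with Benjamini-Hochberg adjustment over all probe sets and a threshold of 0.05, in 23 comparisons. The script was tested on simulated data. Every fold change is first group minus second. The number of arrays limits the precision.

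The members and lists were chosen with earlier results of these data known. Members given in full were the 2 of each role class with the highest mean over all arrays, plus any whose call at 2 h differed from most of its class. Of other lists the 4 with the largest statistic at 2 h were named, with FOXM1, MYBL2, CDKN1A, CCND1 and TK1. The labels do not pair same-numbered arrays, and residuals of such arrays correlated at -0.13 to 0.52, over 0.1 in 98 of 180 pairs. The values still showed a structure by replicate number, since 38 arrays were most like an array of their own number. For 145 probe sets 1 number was highest in all 10 groups. The main fits had no replicate term, so this structure stayed in their spread. The alternatives tried were the replicate block, renormalisation, median centring, the upper 60% of probe sets by mean, array weights, no intensity trend, a spread taken only from the groups compared, the mean over probe sets of a gene, and each array left out in turn. Promoter motifs were not analysed here.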

Additional observations from a re-analysis of the deposited data

Results flagged for a closer look

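Of the 190 groups of 4 arrays examined over the members given in full and the per-array median, 11 held an array far from the other 3 by Dixon's criterion, and chance alone gives about 1 in 20. MAD2L1 had its lowest AES array at 2 h at 2.83 (replicate 4) and its lowest AES24h array at 2 h at 3.48 (replicate 1). PTTG1 had its highest AES24h array at 2 h at 6.05 (replicate 4) and its lowest AES array at 48 h at 5.91 (replicate 4). MKI67 had its lowest AES array at 48 h in the same replicate 4, at 4.18. SKA1 stood high in replicate 2 at 2 h, at 5.60 with AES24h and 4.93 with ACS. NUSAP1 was high in replicate 2 of AES24h at 2 h, at 4.84, and KIF11 in replicate 3 of AES at 2 h, at 3.73. PRR11 was high in replicate 4 of IL-1β at 2 h, at 2.66, and in replicate 3 of ACS at 2 h, at 2.96. TK1 was singled out because its IL-1β effect differed between harvest times, by 1.64 on the log2 scale (48 h minus 2 h, limma adjusted p = 0.0196).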

How the results depend on the processing

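The counts of members called against control at 2 h changed little: leaving out each array gave 43 to 45 with IL-1β (median -3.35 to -2.80), 42 to 45 with AES, 43 to 45 with AES24h and 43 to 44 with ACS. At 48 h the IL-1β median ran from -1.08 to -0.48 with 0 members called each time. The same procedure gave 0 to 8 members for the difference of the IL-1β effects, 0 to 4 for AES against control at 48 h, 0 to 3 for control between times, 0 to 8 for AES, 0 to 17 for AES24h and 0 to 10 for ACS between times. The replicate block called 5 members for AES, 19 for AES24h and 1 for ACS between times, and moved no other count of members by over 1.5 times. The labels give no pairing by number, 1 of 23 comparisons had all same-number correlations over 0.1 (AES24h against control at 48 h), and 38 of 40 arrays were most like an array of their own number. Array weights called 23 members for the difference of the IL-1β effects, 0 for AES against control at 48 h, 4 for control, 0 for AES and 17 for AES24h between times. A spread taken only from the groups compared called 1, 0 and 0 for the difference, AES against control at 48 h and AES between times. Median centring called 0 for AES and 3 for AES24h between times, and the upper 60% of probe sets, which kept 38 members, called 3 and 16. The causes were not tested. Of 268 alternatives for single members at 2 h 264 gave the same call, and SKA1 became called in the other 4, with adjusted p from 3.93e-05 (replicate block, limma) to 0.0425 (array weights).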

Other observations

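With the serum preparations other genes of the cell cycle also rose between 2 h and 48 h, and except for FOXM1, TK1, CCND1 and CDKN1A the genes here are named after their values were seen. With AES 5 of 42 DNA replication and S phase genes rose, where 0.569% of all probe sets were called higher. These were CHAF1B, a subunit of the chromatin assembly factor, by 1.07 on the log2 scale (limma adjusted p = 0.0150), the replicative helicase subunits MCM5 by 1.07 and MCM3 by 0.93, the DNA polymerase POLE by 0.82 and ORC1, which marks replication origins, by 0.73. Of 22 regulators FOXM1 rose by 1.12 and NFYB, a subunit of the NF-Y factor, fell by 0.76. No regulator was called higher when any 1 AES array at 2 h was left out, nor without replicate 1 or 2 at 48 h. Further, 2 of 52 other mitotic genes rose, namely STMN1, a regulator of microtubule stability, by 2.06 and RACGAP1 by 1.62. With AES24h 4 other mitotic genes rose (0.556% of all probe sets higher), namely STMN1 by 2.36, RACGAP1 by 2.01, the condensin subunit NCAPD2 by 0.92 and the phosphatase CDC25B by 0.66, with the S phase genes RRM2 and TK1 by 1.58 and 0.81. With ACS STMN1, the condensin II subunit NCAPG2 and DTL rose by 1.87, 1.59 and 1.47. Leaving out each array, an alternative chosen after seeing the data, gave 1 to 7 S phase genes and 0 to 3 other mitotic genes with AES, 0 to 2 and 1 to 7 with AES24h, and 0 and 0 to 6 with ACS. The high counts came without replicate 4 of AES, replicate 1 of AES24h or replicate 1 of ACS at 48 h, apart from the S phase count with AES24h. With IL-1β alone and in controls 0 genes of these lists were called between the times (limma). With an unadjusted p under 0.05 limma had 17 of 52 other mitotic and 10 of 42 S phase genes higher with IL-1β (3.78% of all probe sets). In controls 35 and 29 of them were lower (2.76%). Whether the time changes with serum differ from those with IL-1β alone was not tested.

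Among 19 G1 cyclins and inhibitors BTG2, an antiproliferative gene, fell between 2 h and 48 h by 0.87 with AES, 1.01 with AES24h and 0.99 with ACS. MYC, which drives growth and entry into S phase, fell by 1.21 with AES24h and 0.79 with ACS, and with AES24h CCNE1 and CDK2 rose by 0.79 and 0.94. Over all 30559 probe sets 331, 171 and 151 were called lower with AES, AES24h and ACS. Leaving out each array gave 0 to 1, 1 to 2 and 0 to 2 G1 genes lower, and 1 to 2 higher with AES24h. The AES count was 0 without replicate 1 or 2 at 2 h or replicate 1 or 4 at 48 h, and the ACS count was 0 without replicate 2 at 2 h.

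Against the 48 h controls 918, 493 and 515 of all 30559 probe sets were called higher with AES, AES24h and ACS and 1452, 590 and 662 lower. Of the G1 genes CCND1 was higher by 0.83 with AES (SE 0.18, limma adjusted p = 0.00284) and by 0.66 with AES24h, CDKN1A by 1.33 with AES24h and 1.37 with ACS, and GADD45A by 0.85 with ACS. SKP2 and CDKN2C fell by 0.71 and 0.53 with AES, and CDKN2C fell by 0.53 with ACS. The NF-Y subunits NFYB and NFYC fell by 0.51 and 0.52 with AES. Of the 52 other mitotic genes 1 was called in each serum group. CKAP2 fell by 1.56 with AES, where 4.75% of all probe sets were lower, and CENPU rose by 0.62 with AES24h and 0.74 with ACS. These single calls lay near or below the shares over all probe sets and say little about the list. With each array left out 1 G1 gene was called higher with AES each time, 0 to 1 with AES24h and 0 to 2 with ACS. The lower counts reached 0 without some single arrays for the G1 genes with AES and ACS, the regulators with AES and the other mitotic genes with AES, as did the higher count of other mitotic genes with AES24h and ACS.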
